A study of Caenorhabditis elegans with 2 samples.

Results

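The genes described here encode proteins of the small subunit of the cytosolic ribosome in Caenorhabditis elegans. They are the protein-coding genes of the RefSeq WBcel235 annotation whose symbol is rps- followed by a digit. There are 30 of them among 19971 protein-coding genes on the nuclear chromosomes. Symbols chose them, not binding, although they were taken up with earlier results of the same data known.

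The data are chromatin immunoprecipitation sequencing (ChIP-seq) peak lists from 1 group of 2 biological replicates, with no second condition. Both replicates were whole L2 larvae of mixed sex from strain OP608, 42 hours old, grown after synchronisation by starvation at L1. The strain carries the mutation unc-119(tm4063) and the integrated transgene wgIs608, which holds unc-119(+) for rescue and Y55F3AM.14, a zinc finger gene, with TY, EGFP and 3xFLAG tags. An anti-GFP antibody was used. RefSeq names the tagged gene znf-782, for a protein with C2H2 domains. Whole animals mix all tissues, and the labels do not say whether the untagged gene was still present. No untagged strain or other tagged factor was among the samples, so whether any region is particular to the tagged protein was not tested.

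The small subunit binds the mRNA, scans it to the start codon and decodes it, while the large subunit joins the amino acids. Its proteins fold around the 18S rRNA into a head with a beak, a platform and a body. They are needed in about equal amounts in every growing cell, and their genes are among the most strongly expressed of an animal. Many C. elegans messages are trans-spliced, so that an annotated start can lie downstream of the point where transcription begins.

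A region is an interval called by the authors. The optimal list holds 1604 regions that passed the authors' test of reproducibility, with scores from 110.3 to 1466 and a median of 150.2. The pooled relaxed list, made from both replicates together, holds 29629 regions including background, and the relaxed lists of replicate 1 and replicate 2 hold 29577 and 28681. The score is the signal value of the authors' peak caller, and read depth is unknown. A region was given to a gene when its summit, the position of highest signal, lay within 500 bp of any of the gene's annotated starts.

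Sequences under 4 of the optimal summits at rps genes are shown, strongest first, to let the letters at the highest signal be read. Each window holds 150 bp around the summit, on the strand of the rps gene, taken from the RefSeq genome WBcel235 (ce11). Capitals mark GAGAGA and GACGC on either strand, motifs chosen because earlier results of these lists had found them often at summits. The motifs can share bases, but do not in these windows.
rps-3A (chrIII:4475596-4475745, + strand): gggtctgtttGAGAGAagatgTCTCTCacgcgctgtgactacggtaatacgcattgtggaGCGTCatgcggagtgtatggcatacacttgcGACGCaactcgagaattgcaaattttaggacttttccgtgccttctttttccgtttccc
rps-12 (chrIII:5679063-5679212, + strand): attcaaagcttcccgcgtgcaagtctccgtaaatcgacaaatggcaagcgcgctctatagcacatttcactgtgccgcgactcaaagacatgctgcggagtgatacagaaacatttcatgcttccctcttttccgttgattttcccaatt
rps-24 (chrIV:385470-385619, + strand): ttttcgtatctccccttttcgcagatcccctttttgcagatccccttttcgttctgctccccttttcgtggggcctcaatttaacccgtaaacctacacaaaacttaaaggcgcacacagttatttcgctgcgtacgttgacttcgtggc
rps-23 (chrIV:12391266-12391415, - strand): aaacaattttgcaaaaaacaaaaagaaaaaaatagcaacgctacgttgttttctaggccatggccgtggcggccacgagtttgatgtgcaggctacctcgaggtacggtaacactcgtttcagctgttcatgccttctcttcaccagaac
The rps-3A window holds both motifs, and the other 3 windows hold neither. Of the 115 36-mers in the rps-24 window, 69 occur once in the genome. All 36-mers were single-copy in the other 8 optimal windows at rps genes.

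Of the 30 rps genes, 9 had an optimal region (30.0%, 95% exact interval 14.7 to 49.4, counting error only), against 684 of all protein-coding genes (3.42%). These 9 genes are rps-3A, rps-12, rps-15, rps-19, rps-20, rps-23, rps-24, rps-26 and rps-28. All 9 regions scored above the median of the optimal list, so the same 9 genes had a region among its 802 highest scores, against 1.81% of all genes. Their scores ran from 171.9 to 423.9 with a median of 238.4, and the median over all pairs of a gene and an optimal region was 151.6. The −log10 of the authors' q value ran from 2.22 to 2.78, and 5 regions shared the highest value. Intervals were 136 to 154 bp wide at rps-12, rps-19 and rps-3A and 424 bp wide at the other 6, the width of 93.2% of all optimal regions. No rps gene had its highest score between 103.5, the highest below the optimal list, and 171.9.

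The 9 genes are ordered by the place of their proteins in yeast and human ribosomes, as background and not as tested groups. Of the proteins of the head and beak, rps-19 (eS19) had a score of 406.5 at chrI:9626020-9626170, rank 61 of the pooled list. Its region scored 187.7 in replicate 1 and 218.1 in replicate 2, with summits 2 bp apart. The beak protein gene rps-12 (eS12) had a score of 250.9 at chrIII:5679059-5679194, with 108.6 in replicate 1 and 143.2 in replicate 2. The gene rps-20 (uS10) had a score of 245.4 at chrI:14469129-14469552, with 93.16 in replicate 1 and 152.1 in replicate 2. These 3 regions were higher in replicate 2. The gene rps-15 (uS19) had a score of 216.6 at chrI:8816364-8816787, with 123.4 in replicate 1 and 93.74 in replicate 2.

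Next come proteins around the platform and the exit of the mRNA channel. The strongest region of the 9 was at rps-3A (eS1), with a score of 423.9 at chrIII:4475592-4475745, rank 53 of the pooled list. It scored 218.8 in replicate 1 and 192.9 in replicate 2, with both summits at the same base. The gene rps-26 (eS26) had a score of 207.2 at chrI:14759284-14759707, with 127.4 in replicate 1 and 86.9 in replicate 2. The gene rps-28 (eS28), whose protein lies by the mRNA exit and contacts the head, had the lowest score of the 9, 171.9 at chrIV:1659030-1659453, with 85.64 in replicate 1 and 99.58 in replicate 2.

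The remaining regions were at genes for proteins of the body. The gene rps-24 (eS24) had a score of 238.4 at chrIV:385333-385756, with 139.0 in replicate 1 and 114.5 in replicate 2. Its summits in the replicates were 96 bp apart, the widest gap of the 9, and the 36-mers under its pooled summit were not all single-copy. The gene rps-23 (uS12), whose protein reaches the decoding centre, had a score of 191.1 at chrIV:12391129-12391552, with 103.0 in replicate 1 and 83.61 in replicate 2. Its summits coincided.

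**Figure D1:**
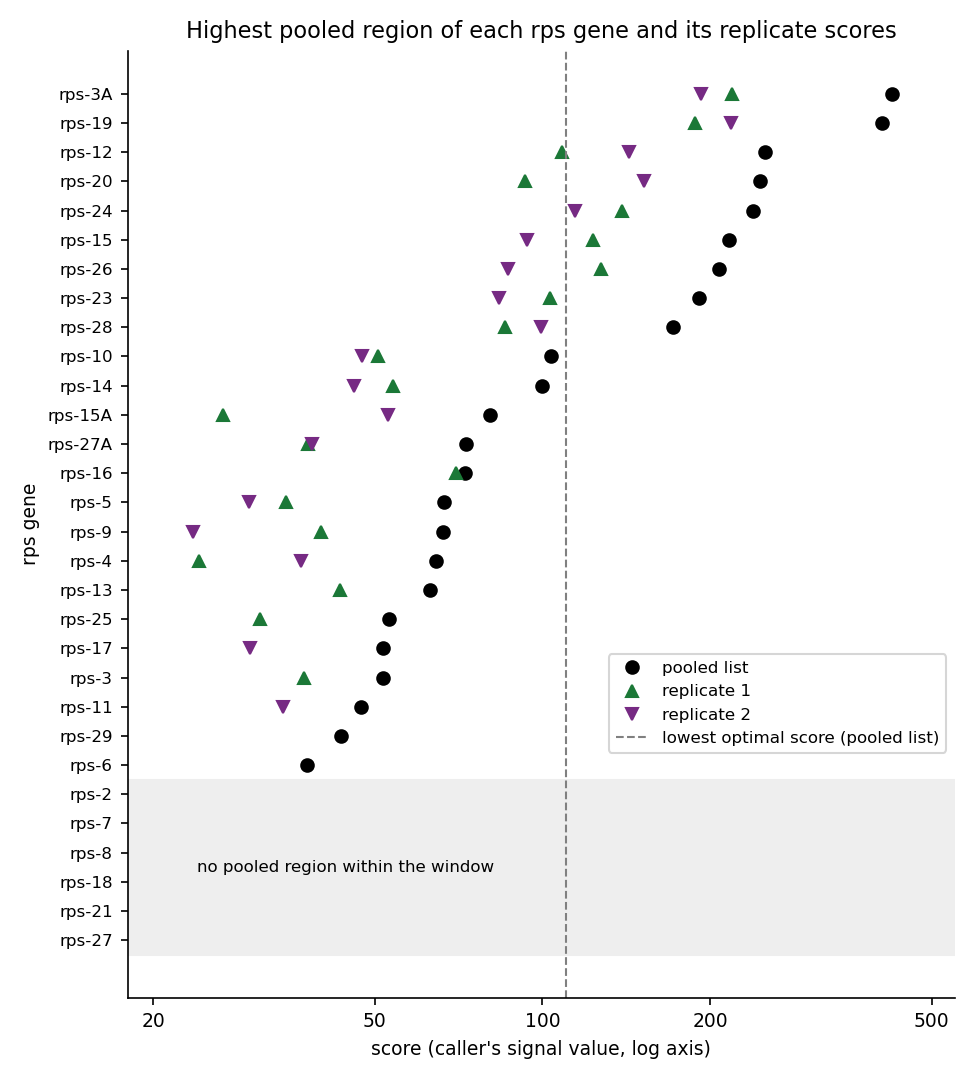
Score of the highest pooled region within 500 bp of a start for each rps gene (circles) and of the replicate regions with a summit within 100 bp of it (triangles), on a log axis, with the lowest optimal score of the pooled list, 110.3, as a dashed line. The 9 genes with an optimal region sit at 171.9 and above, 15 genes lie below the line at 103.5 and less, and 6 genes have no pooled region.

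Both replicates gave these regions, which were selected through the authors' test of reproducibility and are no independent check of it. Over the 9, scores ran from 85.64 to 218.8 in replicate 1 and from 83.61 to 218.1 in replicate 2. The median over all regions of the replicate's list was 29.85 in replicate 1 and 25.26 in replicate 2. Those lists include background and the 9 were chosen as optimal, so scores above the medians follow from that choice. Ranks of the 9 regions ran from 66 to 770 in replicate 1 and from 40 to 535 in replicate 2. The ratio of the score in replicate 1 to that in replicate 2 ran from 0.613 at rps-20 to 1.47 at rps-26, and was above 1 for 5 regions and below 1 for 4. Over the 1517 optimal regions found in both lists the median ratio was 1.20, and the 10th and 90th percentiles were 0.804 and 1.78, a range that held 7 of the 9. Across the 9 regions Spearman's rho between replicates was 0.433, a description over few regions, all of which share the same 2 libraries.

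Taken singly, each replicate returned these genes. The authors derived the optimal list from the relaxed lists by reproducibility. High ranks of its regions in each replicate follow in part from that choice. Among its 1604 highest-scoring regions, replicate 1 had a region at 10 rps genes (33.3%), against 3.32% of all genes, and replicate 2 at 9 (30.0%), against 3.39%. The 9 genes with an optimal region were in both sets. The additional gene in replicate 1 was rps-16, which scored 69.91 there, 12 bp downstream of its start, with no region of replicate 2 within 100 bp of that summit.

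All 9 optimal summits lay upstream of the rps start, between 160 bp (rps-12) and 449 bp (rps-28) away, with a median of 292 bp. The summits of rps-20 (238 bp), rps-3A (247 bp), rps-23 (288 bp) and rps-19 (292 bp) lay in the nearer part of this range. Those of rps-24 (349 bp), rps-15 (383 bp) and rps-26 (434 bp) lay farther out. Over all 716 pairs of a gene and an optimal region, 84.5% of summits were upstream, the median position was 187 bp upstream, and 51.3% lay within the range spanned by the rps summits. Intergenic sequence held 8 of the 9 summits, and the summit at rps-3A lay within the non-coding RNA gene F56F3.10. The median of the 9 positions was 292 bp upstream in replicate 1 and 294 bp upstream in replicate 2.

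**Figure D2:**
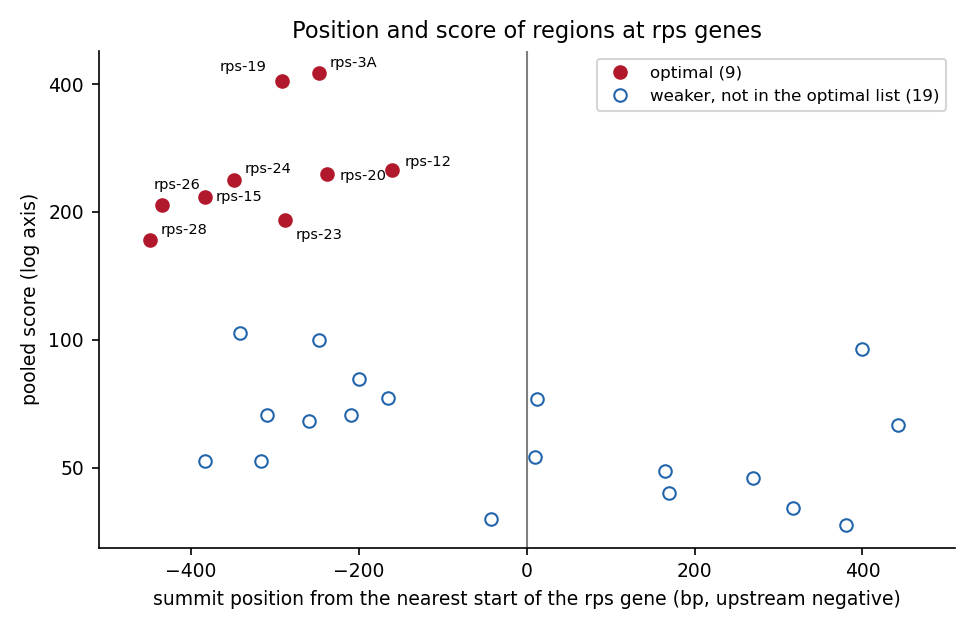
Position of the summit from the nearest start of the rps gene (bp, upstream negative) against pooled score (log axis) for 9 optimal regions (filled) and 19 weaker regions, which are in the pooled list and not in the optimal list (open). Filled points all lie upstream, between 160 and 449 bp, and open points lie on both sides of the start.

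The strongest rps regions lay between genes transcribed away from each other. For 21 of the 30 rps genes (70.0%) the nearest protein-coding gene wholly upstream was on the opposite strand, against 45.4% of all protein-coding genes. An optimal region was found at 9 of these 21 (42.9%), against 4.58% of all genes with a divergent upstream neighbour. It was found at 0 of the 9 rps genes whose upstream neighbour was on the same strand, which allows a share of up to 33.3%, against 2.47% of all genes of that kind. At rps-24 and rps-28 the divergent neighbours, spl-1 and nhr-274, lay 2708 and 14392 bp away. With gaps of up to 1000 bp alone, the count was 7 of 17 divergent rps genes (41.2%), against 6.73% of all such genes. For same-strand neighbours within that gap it was 0 of 8, which allows up to 37.5%, against 2.53%. The arrangement of upstream neighbours was looked at after the regions were known, and no test was run on it.

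In 7 of the 9 cases the divergent neighbour started within 1000 bp of the summit. The summit lay nearer to the neighbour's start in 5 of them. At rps-19 it was 153 bp upstream of hsr-9, a 53BP1 homolog, and at rps-12 it was 133 bp upstream of ska-3, a spindle and kinetochore gene. At rps-20 it was 159 bp upstream of ekl-4, a homolog of DMAP1, and at rps-23 it was 246 bp upstream of dpm-3, annotated as a dolichol-phosphate mannosyltransferase subunit. At rps-26 it was 23 bp upstream of tmem-107, a transmembrane protein gene, and 434 bp from the rps start.

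The start of the rps gene was the nearer one at the other 4. At rps-15 the summit was almost midway, 383 bp upstream of rps-15 and 398 bp upstream of F36A2.9, a gene for a protein with a GDSL lipase domain. At rps-3A it was 247 bp from the rps start and 521 bp from that of ifet-1, a translational repressor gene. At rps-24 and rps-28 no divergent protein-coding start lay within 1000 bp. Counting each region only for the protein-coding gene with the nearest start left 4 rps genes (13.3%), rps-3A, rps-15, rps-24 and rps-28, against 2.88% of all genes. Which gene of a divergent pair a region belongs to cannot be told apart from peak positions.

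Non-coding genes started within 500 bp of 3 of the 9 summits. They were snoRNA genes at rps-12 and rps-26 and ncRNA genes at rps-3A, and no tRNA gene was within that distance of any. Without regions near tRNA or snoRNA genes, 7 of the 30 rps genes kept a region (23.3%), against 3.15% of all protein-coding genes.

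**Figure D3:**
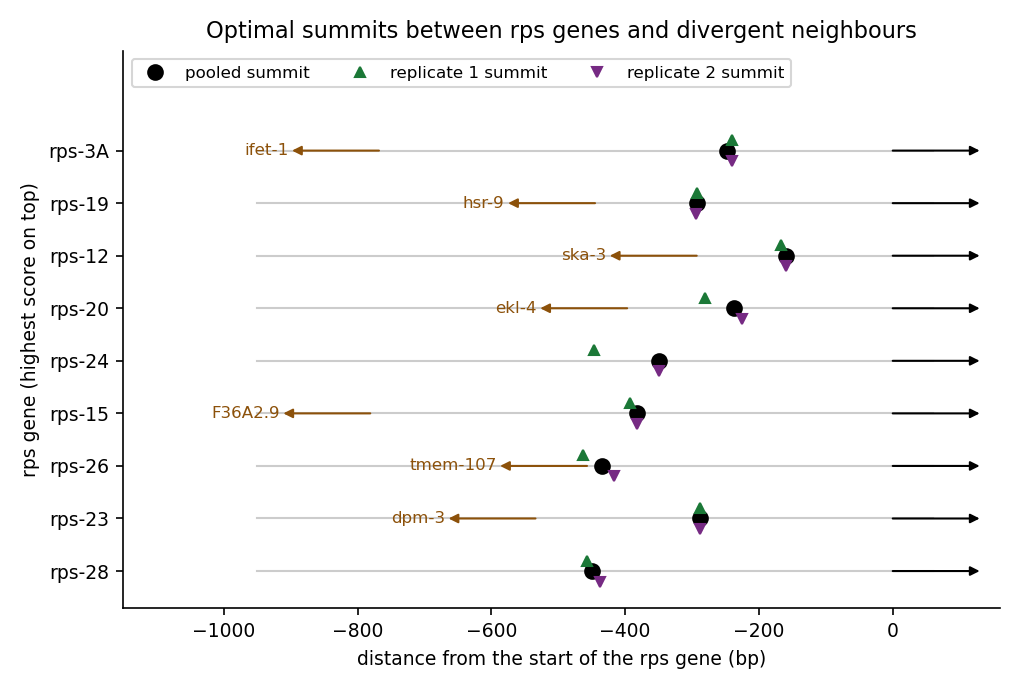
Layout upstream of the 9 rps genes with an optimal region, drawn with transcription of the rps gene to the right (black arrows at 0 bp), divergent protein-coding neighbours that start within 1000 bp of the summit (brown arrows) and the summits of the pooled list and each replicate. At 7 genes the pooled summit falls between the start arrows, and at rps-26 the summit of replicate 1 lies past that of tmem-107, while rps-24 and rps-28 have no such neighbour.

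The motif letters named above were found at 1 of the 9 summits. GAGAGA was found, on either strand, in 1 of 9 windows of 150 bp (11.1%), against 34.5% of all optimal windows, and GACGC in 1 of 9 (11.1%), against 31.3%. Both were in the window of rps-3A, so 8 of 9 windows had neither, against 47.8% of all optimal windows and 47.7% of the 606 with a protein-coding start within 500 bp. Optimal windows at rpl genes, which encode the large subunit, had neither in 5 of 13 (38.5%). With 9 windows no test was run on this difference. TATAAA was in 0 of the 9 windows, which allows up to 33.3%, against 6.55% of all optimal windows. No match says only that these letters are missing from this window.

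Promoters were also searched, from 250 bp before to 50 bp after each gene's annotated 5′ end, bound or not. Only 3 rps genes had an optimal summit within 250 bp of a start, so most optimal summits lie outside this stretch. GAGAGA was in 5 of 30 rps promoters (16.7%), against 21.7% of all protein-coding promoters of this length. GACGC was in 7 of 30 (23.3%), against 19.3%, and TATAAA in 9 of 30 (30.0%), against 37.9%. The median GC content of the 9 summit windows was 46.0%, against 48.0% over all optimal windows and 40.7% over pooled regions outside the optimal list.

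Beyond the optimal list, 15 rps genes had weaker regions alone. A pooled relaxed region was found at 24 of the 30 (80.0%, 61.4 to 92.3), against 33.1% of all protein-coding genes. Each replicate's list had a relaxed region within 500 bp at 20 of the 30 (66.7%, 47.2 to 82.7), against 20.5% of all genes. This count does not ask for the same region in each list. At rps-29, for example, the summit lay 64 bp downstream in replicate 1 and 291 bp downstream in replicate 2. The 24 and the 20 both include the rps genes with an optimal region. Over the 24 genes with a pooled region the highest score had a median of 76.8, against 53.76 over the 6607 protein-coding genes with a pooled region. Those 6607 also include genes with an optimal region. For the 15 rps genes with weaker regions alone the median was 64.4. The relaxed lists include background, so a weaker region need not be a binding site.

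The 2 members just below the optimal list each face a large-subunit gene. The summit at rps-10 (eS10, a beak protein) scored 103.5 at chrI:4584635-4585058, rank 1869, with 50.69 in replicate 1 and 47.38 in replicate 2. It lay 342 bp upstream of rps-10 and 268 bp upstream of the divergent gene rpl-24. The summit at rps-14 (uS11, a platform protein) scored 99.85 at chrIII:7179623-7180046, rank 2030, with 53.89 in replicate 1 and 45.92 in replicate 2. It lay 247 bp upstream of rps-14 and 416 bp upstream of the divergent gene rpl-36. The ratio of replicate 1 to replicate 2 was 1.07 at rps-10 and 1.17 at rps-14. The rps-10 summit lay within the non-coding gene D1007.22, and a snoRNA gene also started within 500 bp.

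Of the next 3, rps-15A scored 80.66, with 26.71 in replicate 1 and 52.84 in replicate 2, and its summit was 200 bp upstream, nearest to the start of the divergent gene polh-1. The gene rps-27A, annotated as ubiquitin-like protein 1, scored 72.94, with 37.93 and 38.62 in replicates 1 and 2, and its summit was 165 bp upstream. The gene rps-16 (uS9) scored 72.63, with its summit just inside the gene. The other 10 genes with weaker regions alone, rps-3, rps-4, rps-5, rps-6, rps-9, rps-11, rps-13, rps-17, rps-25 and rps-29, had highest scores between 37.77 and 66.46, with the summit upstream at 6 and downstream at 4. They include rps-6 (eS6), the substrate of S6 kinase, at 37.77, the lowest.

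The weaker regions lay on both sides of the start. Of the 19, 10 lay upstream and 9 downstream of the rps start (52.6% upstream), against 50.3% upstream over all such pairs of a gene and a weaker region. The highest-scoring downstream region was at rps-28, besides its optimal one, with a score of 95.22 (51.15 in replicate 1, 34.5 in replicate 2). Its summit lay 400 bp downstream of the rps-28 start, past the end of that gene. The nearest start was that of Y41D4B.4, with the summit 19 bp upstream of it. Within the range of 160 to 449 bp upstream that the optimal summits spanned lay 9 of the 19 (47.4%), against 27.8% of all such pairs. Both replicates had a summit within 100 bp of 8 of the 19, 1 replicate had one for 9, and neither did for 2. Coding exons held 4 of these summits, introns 4, a non-coding gene 1 and intergenic sequence 10.

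No pooled region was found at 6 genes: rps-2, rps-7, rps-8, rps-18, rps-21 and rps-27. Of these, rps-2, rps-7 and rps-27 had no region in either replicate list. The gene rps-8 had a region in each replicate (44.13 and 21.92), 175 bp downstream in replicate 1 and 37 bp downstream in replicate 2, rps-18 in replicate 2 alone (21.9) and rps-21 in replicate 1 alone (23.62). Just outside the window, rps-29 had an optimal region 523 bp upstream (score 134.6), nearest to the start of snt-2, and rps-11 had one 558 bp upstream (122.5). With a window of 1000 bp these raised the count to 11 of 30 (36.7%), against 4.93% of all genes, and rps-11 has a same-strand neighbour.

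Related genes are given side by side, with no test of the differences. Over all protein-coding genes the share was 3.42% for optimal and 33.1% for pooled regions. Among rpl genes of the large subunit, 13 of 48 had an optimal region (27.1%), with rpl-3 highest at 1052, and all 13 summits lay upstream at a median of 300 bp. Pooled regions were found at 37 of 48 (77.1%). The median optimal score was 238.4 for rps genes and 314.9 for rpl genes. Among mrps genes, which encode the small subunit of the mitochondrial ribosome, 1 of 29 had an optimal region (3.45%; mrps-7, 117.5) and 11 had a pooled region (37.9%), both close to the shares of all genes. Among mrpl genes, of the large mitochondrial subunit, 3 of 42 had an optimal region (7.14%), with mrpl-28 highest at 164.9, and 17 had a pooled region (40.5%).

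Translation initiation and elongation factors had an optimal region at 8 of 40 genes (20%), against 3.42% of all genes, with iff-2 highest at 406.5. A pooled region was found at 16 of the 40 (40.0%), against 33.1% of all genes. Genes of ribosome assembly had one at 3 of 26 (11.5%): pro-1 (211.7), nol-58 and fib-1, and a pooled region at 14 (53.8%). The small-subunit genes outside the symbol rule were looked at after their values were known. The gene rpsa-1 (uS2) had a pooled region of score 63.0, fau-1, a ubiquitin-like domain gene, one of 105.9 and rack-1 one of 49.8, none of them optimal. Of the 2 S6 kinase genes listed, rskn-1 had an optimal region (115.5) and rsks-1 had none in the pooled list. The 4 rplp genes of the ribosomal stalk had no optimal region, which allows a share of up to 75%. T07A9.14 and T26G10.3, both annotated as eS24 like rps-24, had a pooled region of score 77.7 and 36.39 and no optimal one.

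**Figure D4:**
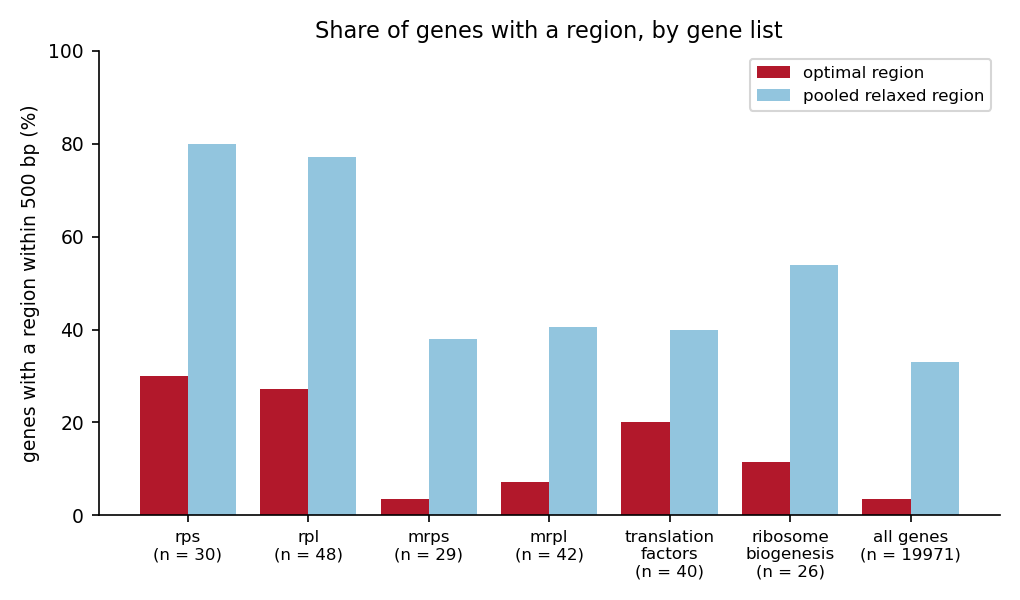
Share of genes with an optimal region (dark bars) and a pooled relaxed region (light bars) within 500 bp of a start, for rps genes, 5 related lists and all protein-coding genes. The rps bars stand at 30.0% and 80.0%, and those of all genes at 3.42% and 33.1%.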

How the data were processed

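ChIP-seq peak lists of 2 biological replicates were analysed. Per the README deposited with the samples, the authors called relaxed lists, which hold peaks and background, on each replicate against 1 control and on both replicates pooled. They derived the optimal list from these by the irreproducible discovery rate. Aligner, caller and threshold: not given in the sources used here. The 4 deposited lists each give a score, the caller's signal value, the −log10 of a q value, and the offset of the summit. Coordinates are of ce11, identical to WBcel235. Sonication gave fragments of 200 to 800 bp. Totals of reads are unknown, so scores were not scaled to depth.

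Genes, starts and sequence came from RefSeq WBcel235 (Python 3.11.15, NumPy 2.4.6, pandas 2.3.3, SciPy 1.17.1). A region counted for every gene with an annotated start within 500 bp of its summit, and summits within 100 bp of each other were taken as the same region in different lists. The results are counts and medians set beside those of all 19971 protein-coding genes, without tests, because there is 1 group and the members were chosen with earlier results of these data known, as were the related lists and motifs. Named in full by rule are all rps genes with an optimal region and the 5 others with the highest pooled scores. No gene carried an rla symbol, and the rplp list was added after the data were seen. Intervals are 95% exact (Clopper-Pearson). An upper limit for a count of 0 is 3 divided by the number of genes or windows, except for the 4 rplp genes, where it is the exact one. Control libraries and signal tracks were not used here.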

Additional observations from a re-analysis of the deposited data

How the results depend on the processing

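The count of rps genes with an optimal region, 9, was 3 within 250 bp and 4 with the nearest gene alone, and stayed within 1.5 times of 9 under the other 7 alternatives, 9 to 10 when either replicate was left out. The count with a pooled relaxed region, 24, was 12 within 250 bp and 18 with the nearest gene alone. It was 22 without replicate 1, against 32.2% of all protein-coding genes, and 24 without replicate 2, against 32.9%. The count with a relaxed region in the list of each replicate, the same region or not, was 20. It was 7 within 250 bp and 12 with the nearest gene alone. The shorter window ends inside the range where the summits lie, 160 to 449 bp upstream, and nearest-gene counting gives 5 of the 9 regions to the divergent neighbour. Among all protein-coding genes the share within 250 bp was 2.05% for optimal, 20.9% for pooled relaxed regions and 11.3% for both replicates. With the nearest gene alone it was 2.88% for optimal, 31.1% for pooled relaxed regions and 18.9% for both replicates. The median position of optimal summits, -292 bp, was -238 bp within 250 bp, -349 bp within 1000 bp and -366 bp with the nearest gene alone, and -294 to -290 bp without 1 replicate. No paired analysis was possible because there is 1 group. Peak lists without read totals limit every value here to presence, position and the caller's score.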
